A study of Mus musculus with 52 samples.

Results

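Transcript levels of 43 lysosomal genes were followed across 6 tables of mouse spinal cord RNA, each of which listed 23697 genes. The 43 were a named set of lysosomal proteases, hydrolases and membrane proteins, matched by gene symbol, and each was found in 1 row of every table. They comprised 12 proteases, 9 membrane proteins, 15 enzymes that cleave glycans or sulfates, 4 lipid hydrolases and 3 soluble helper proteins.

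Mice carried a mutant SOD1 transgene, G37R or G85R, as a model of amyotrophic lateral sclerosis, and Non-Tg mice were the controls. In the purified groups, controls included, a bacTRAP reporter (EGFP fused to the ribosomal protein RPL10A) was carried by the named cell type, and RNA bound to the tagged ribosomes was captured and sequenced. The promoter that drives each reporter is not named in the labels. Disease onset was sampled in motor neurons, with 4 libraries of each genotype, and in astrocytes, with 6 control libraries and 4 of G37R, and the labels give no age in months for them. Oligodendrocytes came from onset at 8 months (5 control and 4 G37R) and from the early symptomatic stage at 11 months (5 control, 3 G37R and 3 G85R). Whole spinal cord came from 8 months (4 control and 4 G37R) and from 11 months (3 and 3). Libraries from onset were all labelled male, whereas the 11-month groups held both sexes. Levels below are FPKM-equivalents, a scale per transcript length and per library size. A change is the mutant minus the control mean of log2(value + 1) with its SE. "Rose" and "fell" are kept for genes with a limma p under 0.05 after Benjamini-Hochberg adjustment over all genes of the table whose mean was at least 1.

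Lysosomes are acidic organelles in which proteins, glycans and lipids delivered by endocytosis, phagocytosis and autophagy are broken down. Cathepsins cut proteins, glycosidases and sulfatases remove sugars and sulfates, and membrane proteins such as LAMP1 protect and supply the organelle. Inherited loss of many of these enzymes causes storage diseases that harm neurons and myelin, and microglia, the phagocytes of the central nervous system, are rich in several of them.

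Each purified cell type carried its own markers. Summed motor neuron markers were at 2169 to 2543 in motor neuron controls against 125 to 199 in 8-month cord controls. Summed astrocyte markers were at 8433 to 9574 in astrocyte controls against 2005 to 2106 in cord, and oligodendrocyte markers at 34099 to 39467 in 8-month oligodendrocyte controls against 13004 to 15344 in cord. Purified groups were not free of the markers of other types. The oligodendrocyte sum was 6267 to 8839 in astrocyte controls, and the astrocyte sum 664 to 851 in 8-month oligodendrocyte controls. Their part in the levels of the members was not tested. Some libraries stood apart from their labelled group. In 11-month cord, the sum of 13 microglial markers was 1794 in the library labelled control 1, against 536 and 469 in controls 2 and 3, and it was 533 in the library labelled G37R 2, against 1119 and 1546 in the other G37R libraries. In 11-month oligodendrocytes that sum was 417 in G85R 1, against 46.3 and 71.1 in G85R 2 and 3. The 11-month oligodendrocyte library labelled control 1 listed Lipa at 0 and had an oligodendrocyte marker sum of 15990.5, against 35444 to 38625 in the other controls.

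In control mice the lysosomal genes were spread unevenly over the 3 cell types. Of the 43, 8 had their highest purified level in motor neurons, 10 in astrocytes and 25 in 8-month oligodendrocytes. Against 8-month cord, 8 members were higher in motor neurons, 10 in astrocytes and 19 in oligodendrocytes of either age. The median difference in log2(mean + 1) was -0.72 in motor neurons, -0.43 in astrocytes and -0.071 in 8-month oligodendrocytes, beside -0.21, -0.17 and -0.30 over all 13696 genes. The tables were normalized separately, so these orders are descriptions with no test. Purified groups hold RNA captured on tagged ribosomes and cord groups are whole tissue, so cell type and capture cannot be told apart against cord.

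**Figure D1:**
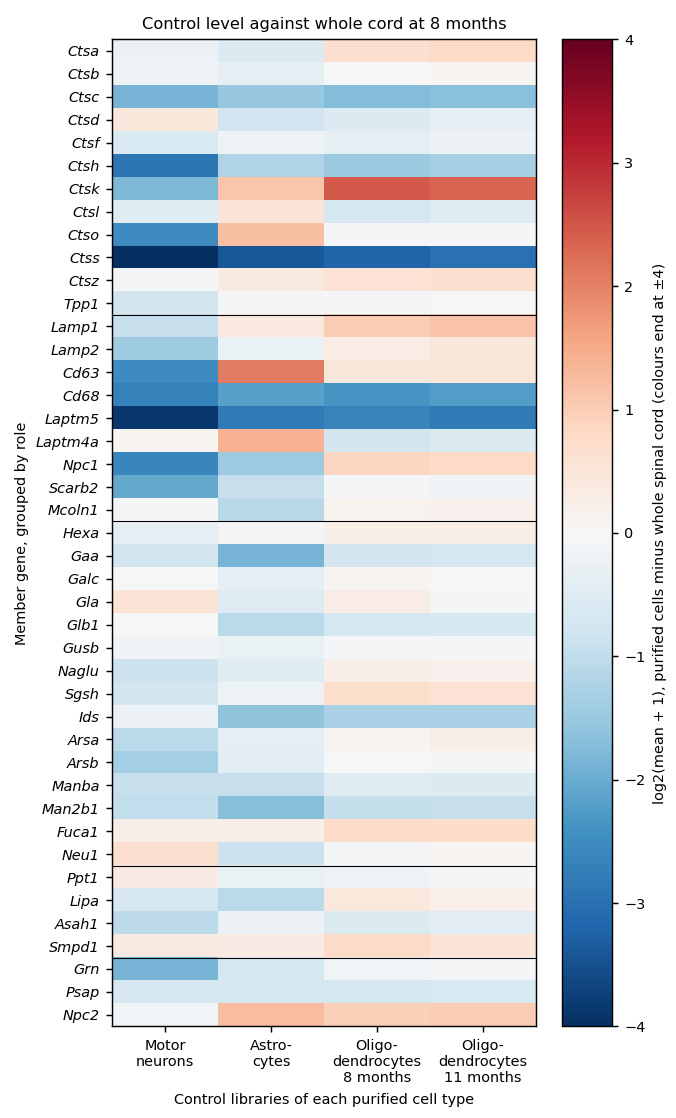
Control levels of the 43 genes in each purified cell type relative to whole spinal cord at 8 months, as differences of log2(mean + 1), with red above and blue below cord and lines between the roles. Ctsk and Lamp1 are red in oligodendrocytes, Cd63 and Laptm4a in astrocytes, and Ctss, Cd68 and Laptm5 are blue in every purified type; Ctss in motor neurons, at -5.05, lies past the end of the colour scale.

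The members farthest above cord in motor neurons were Neu1, Gla and Ctsd. Neu1, the sialidase that removes terminal sialic acids, was at 30.4, 33.3, 29.4 and 28.0 in motor neuron controls and at 18.5 ± 0.480 (SD, n = 4) in cord. Gla, the galactosidase lost in Fabry disease, was at 11.6, 12.3, 11.7 and 11.8, and Ctsd, the main aspartic protease of lysosomes, at 429.6, 478, 435 and 416, against 7.83 ± 0.626 and 319 ± 7.17 in cord. All 4 motor neuron libraries exceeded the cord mean for each of these genes. Npc1, the membrane transporter that exports cholesterol from lysosomes, was at 5.70 ± 0.351 in motor neurons and 72.9 ± 12.8 in 8-month oligodendrocytes.

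Cd63, Laptm4a and Npc2 lay farthest above cord in astrocyte controls. Cd63, a tetraspanin of late endosomes and exosomes, ranged from 250.5 to 525.8 with a median of 447, against 100.3 ± 7.15 in cord. Laptm4a, a small multispanning membrane protein, ranged from 249.8 to 511 with a median of 437, and Npc2, the soluble protein that hands cholesterol to NPC1, from 78.6 to 126 with a median of 111. The cord means of those genes were 156 ± 4.88 and 46.1 ± 1.99, below all 6 astrocyte libraries in each case. Ctso, a cysteine cathepsin, was at 37.1 ± 7.88 in astrocytes and 1.94 ± 0.143 in motor neurons.

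In oligodendrocyte controls at 8 months the order was Ctsk, Lamp1 and Npc2. Ctsk, the collagen-degrading cathepsin best known from osteoclasts, was at 27.4, 39.2, 27.9, 28.9 and 35.3 in 8-month oligodendrocytes, against 4.96 ± 0.439 in cord. Lamp1, an abundant glycoprotein of the lysosomal membrane, was at 739, 793, 775, 620.0 and 828.7, against 367 ± 20.3. Npc2 was at 94.8, 101, 88.8, 76.3 and 89.4. Each of the 5 libraries lay above the cord mean for these genes.

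By contrast, 17 members lay below cord in motor neurons, astrocytes and 8-month oligodendrocytes alike. Ctss and Laptm5 had the widest gaps in each of the 3 types, followed by Ctsh in motor neurons and Cd68 in the others. Ctss, a cathepsin of antigen-presenting cells that stays active at neutral pH, was at 3.02, 1.96, 1.65 and 1.63 in motor neurons, ranged from 6.84 to 11.3 with a median of 7.79 in astrocytes and was at 6.76, 8.99, 14.7, 8.11 and 10.9 in 8-month oligodendrocytes, against 100.4 ± 11.2 in cord. Cd68, the heavily glycosylated scavenger protein used to stain phagocytes, was at 0.328 ± 0.0426, 0.896 ± 0.344 and 0.669 ± 0.387 in the same order, against 7.59 ± 1.501. Laptm5, a lysosomal membrane protein of blood-derived cells, was at 0.427 ± 0.103, 1.91 ± 0.415 and 2.27 ± 1.19, against 19.9 ± 3.16. The 13 microglial markers summed to 8.12 to 11.9 in motor neuron controls, 40.6 to 66.7 in astrocyte controls and 32.1 to 51.7 in 8-month oligodendrocyte controls, against 335 to 408 in cord.

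**Figure D2:**
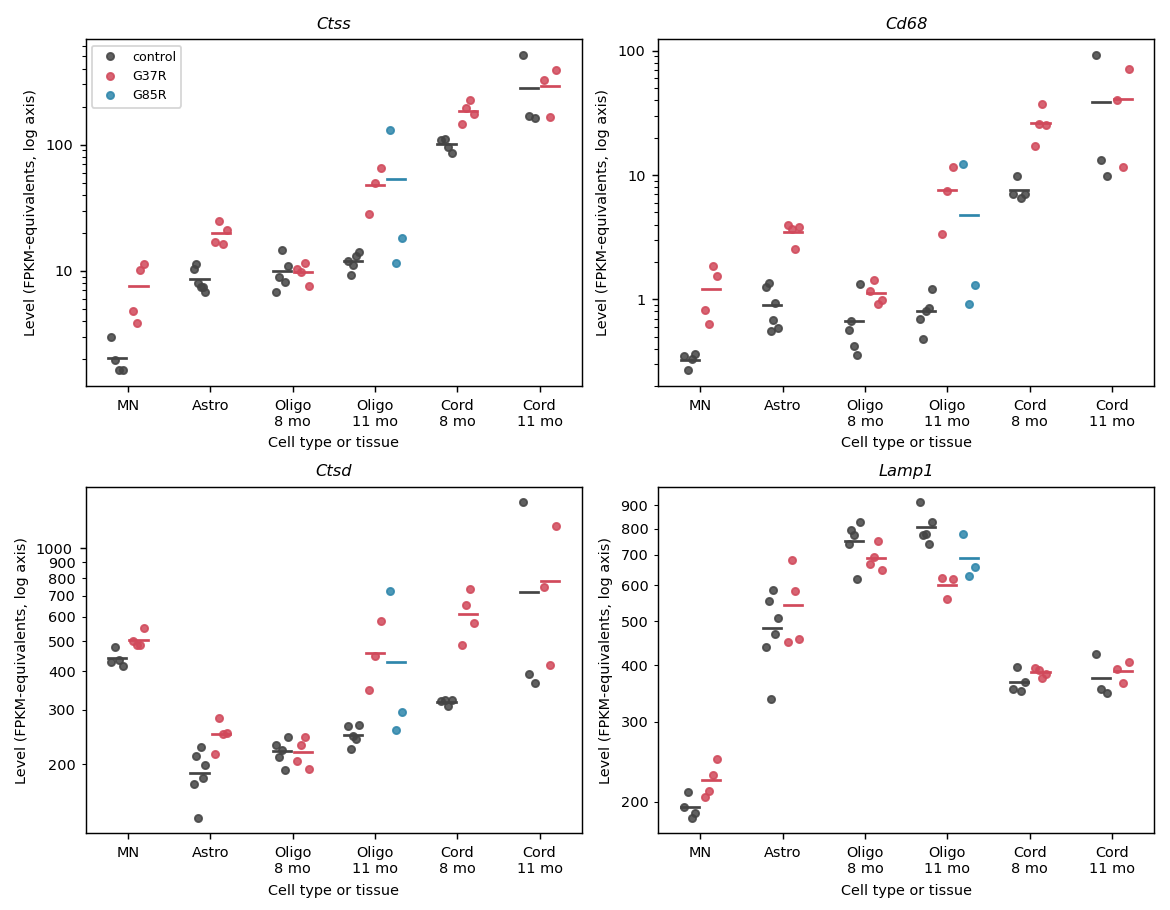
Level of 4 members in each library on log axes, by cell type or tissue; points are libraries, bars group means. Ctss and Cd68 reach their highest levels in whole cord and are higher in G37R than in control in 8-month cord and astrocytes. Ctsd separates the genotypes in 8-month cord. Lamp1 reaches its highest levels in oligodendrocytes, where the 11-month G37R libraries lie below the controls.

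In whole cord at 8 months, where the comparison asks what G37R changes in the tissue at onset, 17 of the 43 members rose and 0 fell, against 2.17% of 13828 genes called in either direction, 1.87% higher and 0.296% lower. The median change of the members was 0.13, against -0.012 over all genes tested, and 35 members were on the higher side. By role, 7 of 12 proteases rose, 4 of 9 membrane proteins, 2 of 15 glycan or sulfate hydrolases, 2 of 4 lipid hydrolases and 2 of 3 helper proteins.

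Among the cathepsins, Ctsh, an aminopeptidase, was at 10.1, 9.11, 10.8 and 8.63 in the controls and 16.0, 19.9, 23.9 and 19.2 in the G37R libraries. Its lowest G37R library exceeded its highest control, and the level rose by 0.95 (SE 0.11, adjusted p = 0.00938). Ctsd was at 320.2, 323, 308 and 323 in the controls and 486, 653, 740.1 and 574 in the G37R libraries. Controls lay close together while the G37R libraries were spread widely above them, and Ctsd rose by 0.92 (SE 0.11, adjusted p = 0.00938). Ctsc, which activates serine proteases of immune cells, was at 4.22, 2.94, 3.05 and 2.97 in the controls and 4.96, 6.86, 9.21 and 7.05 in G37R. Control 1 was the highest control and still below G37R 1, the lowest mutant, and the rise was 0.88 (SE 0.17, adjusted p = 0.0389). Ctss was at 109, 110.2, 96.5 and 86.4 against 147, 195, 226 and 174. The genotypes did not overlap, and Ctss rose by 0.87 (SE 0.14, adjusted p = 0.0291). Ctsz, a carboxypeptidase, rose by 0.82 (SE 0.14), Ctsl, a broad endopeptidase, by 0.40 (SE 0.080), and Ctsb, an abundant cathepsin, by 0.30 (SE 0.057). Of the 5 proteases without a call, Ctsa changed by 0.29 (SE 0.065), and Ctsk by -0.16 (SE 0.092).

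Of the membrane proteins, Cd68 was at 6.98, 9.82, 6.54 and 7.02 in the controls and 17.3, 25.8, 37.2 and 25.1 in G37R. Control 2 was highest of its group but lay below all 4 mutants. Cd68 rose by 1.64 (SE 0.24, adjusted p = 0.0257), and the ratio of the means was 3.47. Laptm5 rose by 0.68 (SE 0.12), Cd63 by 0.43 (SE 0.071) and Lamp2, the receptor of chaperone-mediated autophagy, by 0.15 (SE 0.032). Lamp1, at 385 ± 9.03 against 367 ± 20.3 (G37R against control, mean ± SD, n = 4 each), changed by 0.071 (SE 0.044, adjusted p = 0.485).

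Helper proteins and hydrolases divided in the same table. Grn, which encodes the precursor of the lysosomal granulins, was at 26.7, 29.5, 24.7 and 25.4 in the controls and 39.2, 50.5, 60.0 and 44.5 in G37R. Its ranges were apart, and it rose by 0.83 (SE 0.13, adjusted p = 0.0221). Psap, the precursor of the saposins, was at 828 ± 24.7 against 797 ± 29.95 and had a change of 0.056 (SE 0.041, adjusted p = 0.564). Gusb, the glucuronidase, rose by 0.59 (SE 0.088), and Hexa, the alpha subunit of hexosaminidase, by 0.52 (SE 0.062). The other 13 glycan or sulfate hydrolases had no call. Lipa, the acid lipase, rose by 0.25 (SE 0.045), Npc2 by 0.22 (SE 0.043) and Asah1, acid ceramidase, by 0.13 (SE 0.029).

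Microglial markers moved with these genes: their sum was 335 to 408 in the controls and 587 to 899 in G37R, 8 of the 13 were called higher, and Cd68 and Ctss are themselves phagocyte genes. The part of microglia in the result was not tested, and in bulk RNA a larger number of cells of a type and more RNA per cell cannot be told apart. The count of 17 leaned on single libraries. It was 3 without control 1, control 4 or G37R 2, 5 without control 3, 6 without G37R 4 and 11 without G37R 3. Over all fits without 1 library, 80 to 482 genes were called, against 300 with every library. The 17 were picked by their calls in these same libraries, so directions kept on leaving out 1 library are not read as support.

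**Figure D3:**
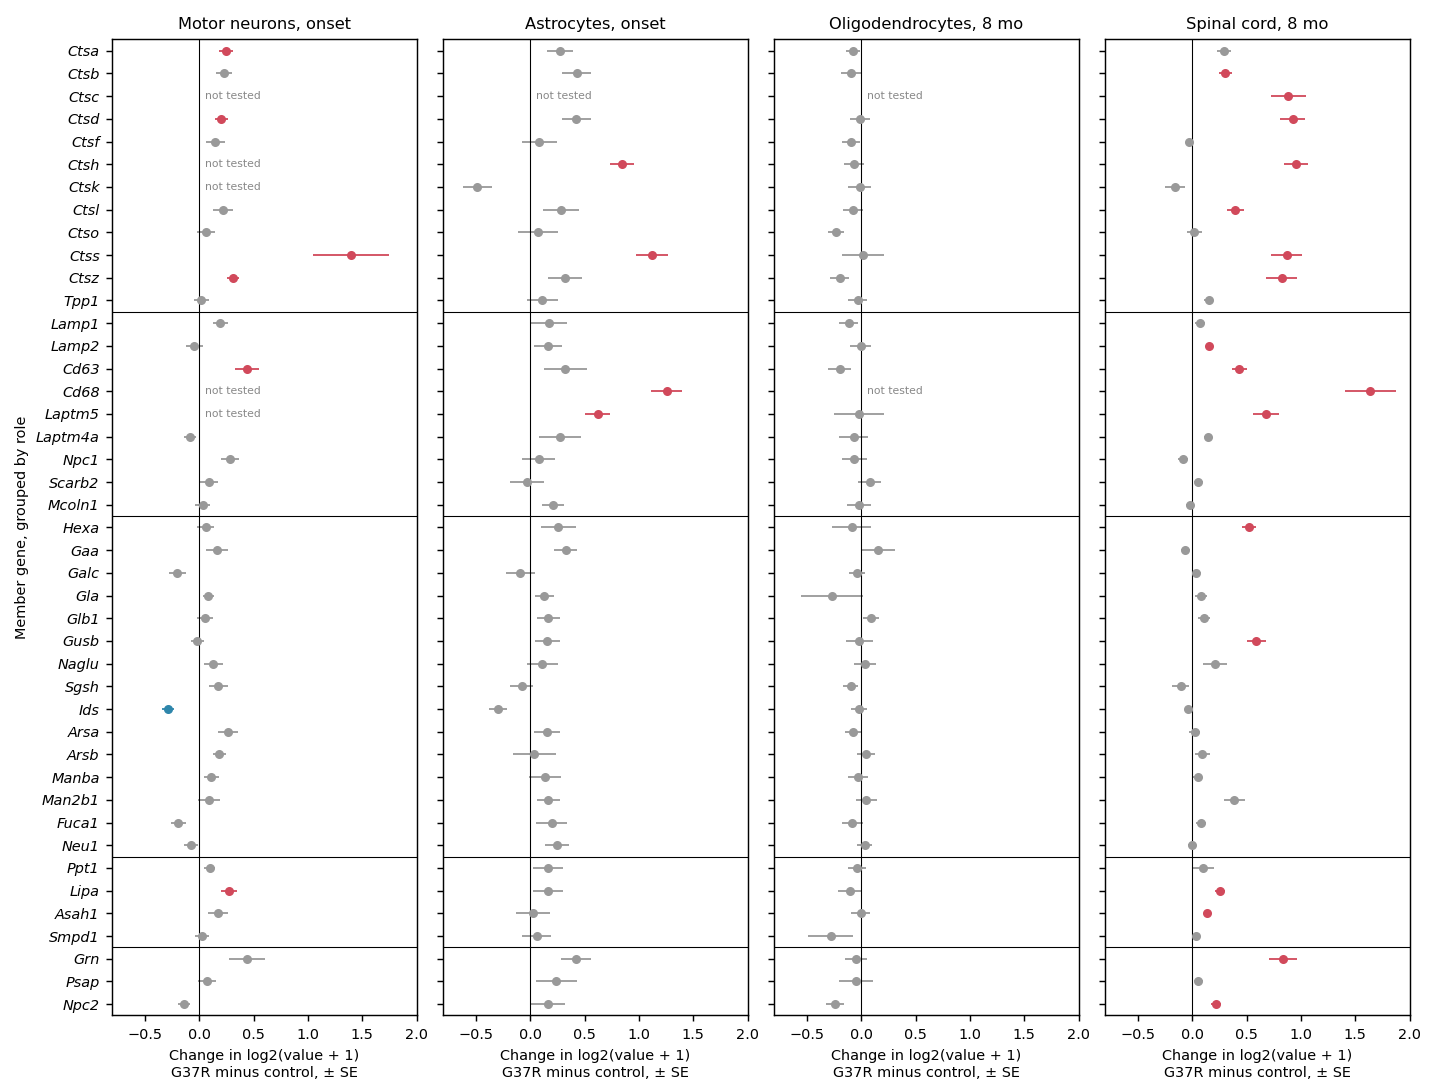
Change in log2(value + 1), G37R minus control, with its SE for each member at onset in motor neurons, astrocytes, 8-month oligodendrocytes and 8-month spinal cord; red points rose, blue fell, grey had no call, and lines part the roles. In cord 17 members are red, in astrocytes 4, in motor neurons 6 with Ids in blue, and in 8-month oligodendrocytes 0.

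Ctss was called in more comparisons than any other member, 4 in all, and Ctsd, Cd68 and Laptm5 in 3 each. On mm9, the build of the tables, Ctss spans chr3:95330707-95360325, Cd68 chr11:69477872-69479564, Laptm5 chr4:130469248-130492063 and Ctsd chr7:149561820-149573775. Their promoters are shown because these were the members called most often, from 250 bases before the start of the transcript to 30 after, as RefSeq gives them on GRCm38.p6. Coordinates are chr3:95526536-95526815 (+ strand) for Ctss, chr11:69666141-69666420 (- strand) for Cd68, chr4:130913066-130913345 (+ strand) for Laptm5 and chr7:142387798-142388077 (- strand) for Ctsd. Capitals mark CACGTG (the E-box), TCACGTGA (the box of TFEB, a master factor of lysosomal genes, which contains the E-box) and ACTTCCTC on either strand (a core bound by PU.1, a factor of myeloid cells).
Ctss: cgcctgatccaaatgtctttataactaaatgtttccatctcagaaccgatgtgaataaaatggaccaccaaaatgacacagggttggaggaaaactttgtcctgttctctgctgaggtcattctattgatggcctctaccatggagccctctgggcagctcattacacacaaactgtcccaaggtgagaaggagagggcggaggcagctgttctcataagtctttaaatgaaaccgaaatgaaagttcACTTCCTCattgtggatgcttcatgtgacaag
Cd68: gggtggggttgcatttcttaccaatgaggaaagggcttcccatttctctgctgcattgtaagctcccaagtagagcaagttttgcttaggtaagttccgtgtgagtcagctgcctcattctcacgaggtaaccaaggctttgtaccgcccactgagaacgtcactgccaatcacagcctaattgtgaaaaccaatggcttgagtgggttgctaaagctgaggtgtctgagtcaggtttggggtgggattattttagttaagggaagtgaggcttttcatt
Laptm5: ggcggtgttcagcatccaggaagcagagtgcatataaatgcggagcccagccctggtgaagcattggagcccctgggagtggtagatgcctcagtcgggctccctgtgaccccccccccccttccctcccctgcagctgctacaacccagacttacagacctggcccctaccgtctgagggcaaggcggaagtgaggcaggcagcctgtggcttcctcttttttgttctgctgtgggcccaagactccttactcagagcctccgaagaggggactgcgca
Ctsd: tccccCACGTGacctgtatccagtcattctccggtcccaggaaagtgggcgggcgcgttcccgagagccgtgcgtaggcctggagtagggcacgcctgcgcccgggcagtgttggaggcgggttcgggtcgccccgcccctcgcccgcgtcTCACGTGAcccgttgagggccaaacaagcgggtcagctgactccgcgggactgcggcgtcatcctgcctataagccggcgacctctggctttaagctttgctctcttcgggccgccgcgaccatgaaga

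Over windows from 250 bases before to 50 after the start, 39 of the 43 members had a RefSeq entry and Ctsb, Ctsh, Npc1 and Asah1 had none. TCACGTGA occurred in 4 members (Ctsa, Ctsd, Gla and Mcoln1), which is 10.3% of the 39, against 0.974% of all 32851 windows, in which both strands were searched. CACGTG occurred in 12 members, 30.8%, against 7.15% of windows, and ACTTCCTC in 4 (Ctsc, Ctss, Gla and Gusb), 10.3% against 3.20%. The boxes of the 4 members are set out with 10 bases on each side and the box in capitals; Ctsa and Gla have a pair each.
Ctsa, first box (chr2:164833750-164833777, + strand): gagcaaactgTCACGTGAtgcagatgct
Ctsa, second box (chr2:164833767-164833794, + strand): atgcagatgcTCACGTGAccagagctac
Ctsd (chr7:142387909-142387936, - strand): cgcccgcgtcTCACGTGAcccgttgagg
Gla, first box (chrX:134601216-134601243, - strand): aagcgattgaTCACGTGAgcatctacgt
Gla, second box (chrX:134601183-134601210, - strand): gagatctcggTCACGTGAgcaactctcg
Mcoln1 (chr8:3500463-3500490, + strand): ggcgccccgcTCACGTGAccgcggcgca
Of the 4, Ctsa rose in motor neurons and Ctsd in motor neurons, 8-month cord and 11-month oligodendrocytes, while Gla and Mcoln1, the lysosomal calcium channel, had no call in any comparison. Matches describe the letters of the windows and no binding was measured.

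In astrocytes at onset, 4 of 42 members tested rose in G37R (Cd68, Ctss, Ctsh and Laptm5) and 0 fell, against 2.34% of 12466 genes called in either direction, 1.52% higher and 0.818% lower. Ctsc, with a mean under 1, was not tested. The median change of the 42 was 0.16, against -0.0020 over all genes tested, and 37 were on the higher side. Ctss, Laptm5 and Cd68 were also the members farthest below cord in astrocyte controls.

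Cd68 in astrocytes ranged from 0.554 to 1.34 with a median of 0.808 over the 6 controls and was at 3.98, 3.67, 2.52 and 3.82 in G37R. Mutant libraries all exceeded the highest control, and the rise was 1.25 (SE 0.14, adjusted p = 0.00107). Ctss ranged from 6.84 to 11.3 with a median of 7.79 in the controls and was at 17.0, 24.7, 16.5 and 21.1 in G37R. The ranges were again apart, and Ctss rose by 1.12 (SE 0.15, adjusted p = 0.00285). Ctsh ranged from 2.93 to 4.64 with a median of 3.64 against 7.17, 7.30, 7.88 and 6.76, and Laptm5 from 1.56 to 2.50 with a median of 1.71 against 3.36, 4.19, 3.03 and 3.25. Neither gene overlapped between genotypes. Ctsh rose by 0.84 (SE 0.11, adjusted p = 0.00285) and Laptm5 by 0.62 (SE 0.11, adjusted p = 0.0174).

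The members farthest above cord in astrocytes had no call. Cd63 was at 523 ± 107 against 422 ± 92.9 (G37R, n = 4, against control, n = 6) with a change of 0.32 (SE 0.20, adjusted p = 0.442), Laptm4a had 0.27 (SE 0.19, adjusted p = 0.516) and Npc2 0.16 (SE 0.16, adjusted p = 0.629). Ctsd, which lay below cord in astrocytes, was at 250.1 ± 26.7 against 188 ± 33.2 with 0.42 (SE 0.14, adjusted p = 0.139). Grn and Ids lay apart between genotypes without a call, at 0.42 (SE 0.14, adjusted p = 0.139) and -0.30 (SE 0.080, adjusted p = 0.0777). Ctsk, at 11.8 in astrocyte, 31.7 in 8-month oligodendrocyte and 4.96 in 8-month cord controls, had -0.49 (SE 0.14, adjusted p = 0.0867). The microglial marker sum was 40.6 to 66.7 in the controls and 123 to 151 in G37R, and 9 of 12 markers tested were called higher; their part was not tested. With only genes of a mean of at least 5 tested, 2 members were called, since Cd68 and Laptm5 then lay under the minimum.

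In motor neurons at onset, 6 of 38 members tested rose in G37R and 1 fell, against 12.9% of 12303 genes called in either direction, 6.49% higher and 6.37% lower. Ctsc, Ctsh, Ctsk, Cd68 and Laptm5 had means under 1 and were not tested. The median change was 0.10, against 0.015 over all genes tested, with 30 members on the higher side; 4 of 9 proteases tested rose and all 9 were on that side.

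Ctss was at 3.02, 1.96, 1.65 and 1.63 in motor neuron controls and 4.84, 3.84, 10.2 and 11.4 in G37R. Libraries G37R 3 and 4 stood well above G37R 1 and 2, which themselves exceeded all controls, and Ctss rose by 1.39 (SE 0.35, adjusted p = 0.0469). Ctsz was at 42.7, 44.5, 41.9 and 40.2 against 52.6, 52.6, 49.6 and 55.7. Here the 4 mutant libraries lay together above the controls, with a rise of 0.31 (SE 0.053, adjusted p = 0.0102). Ctsa, which protects and activates the sialidase and galactosidase complex, was at 29.3, 31.0, 27.6 and 27.2 against 32.5, 32.8, 34.3 and 38.1. All mutants exceeded all controls, with a rise of 0.25 (SE 0.065, adjusted p = 0.0334). Ctsd, already the highest protease of motor neurons, rose by 0.20 (SE 0.060, adjusted p = 0.04995), just inside the threshold.

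Cd63 was at 15.5, 18.4, 15.8 and 16.6 in the controls and 20.6, 18.7, 25.9 and 27.2 in G37R. G37R 2 lay barely above control 2, and the rise was 0.44 (SE 0.11, adjusted p = 0.0333). Lipa was at 9.01, 10.7, 10.5 and 10.2 against 12.2, 11.1, 13.02 and 13.5. The groups were apart, with a rise of 0.28 (SE 0.075, adjusted p = 0.0384). Ids, the iduronate sulfatase lost in Hunter syndrome and abundant in neurons, was at 89.2, 97.1, 94.6 and 93.8 in the controls and 82.6, 79.7, 74.3 and 70.3 in G37R. It was the sole member to fall, with a change of -0.29 (SE 0.059, adjusted p = 0.0167), and every mutant library lay under every control. Untested for their low level, Cd68 was at 0.347, 0.268, 0.330 and 0.366 against 0.820, 0.629, 1.85 and 1.54 and Laptm5 at 0.537, 0.376, 0.311 and 0.486 against 1.16, 0.960, 1.46 and 1.47.

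Glial markers moved with these genes in motor neurons. The microglial sum was 8.12 to 11.9 in the controls and 25.7 to 59.0 in G37R, highest in G37R 3 and 4. The oligodendrocyte sum was 462 to 517 against 583 to 1011 and the astrocyte sum 373 to 468 against 511 to 909. All 8 astrocyte and all 8 oligodendrocyte markers were on the higher side, of which 1, Cldn11, was called. Of the called members, Cd63 had its highest purified control level in astrocytes, and Ctsd and Ids had theirs in motor neurons. For Ctss, Ctsz, Ctsa and Lipa it was in 8-month oligodendrocytes. The part of other cell types in the result was not tested. Without G37R 3 and 4 only Ctsz remained called, at 0.31 (SE 0.056, adjusted p = 0.0284). Ctss then had 0.82 (SE 0.18, adjusted p = 0.0682) and Ids -0.20 (SE 0.054, adjusted p = 0.0777). Leaving out 1 library gave 1 call without control 2 or control 3 and 2 without control 1, control 4, G37R 3 or G37R 4. Over all fits without 1 library, 274 to 2136 genes were called, against 1582 with every library.

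**Figure D4:**
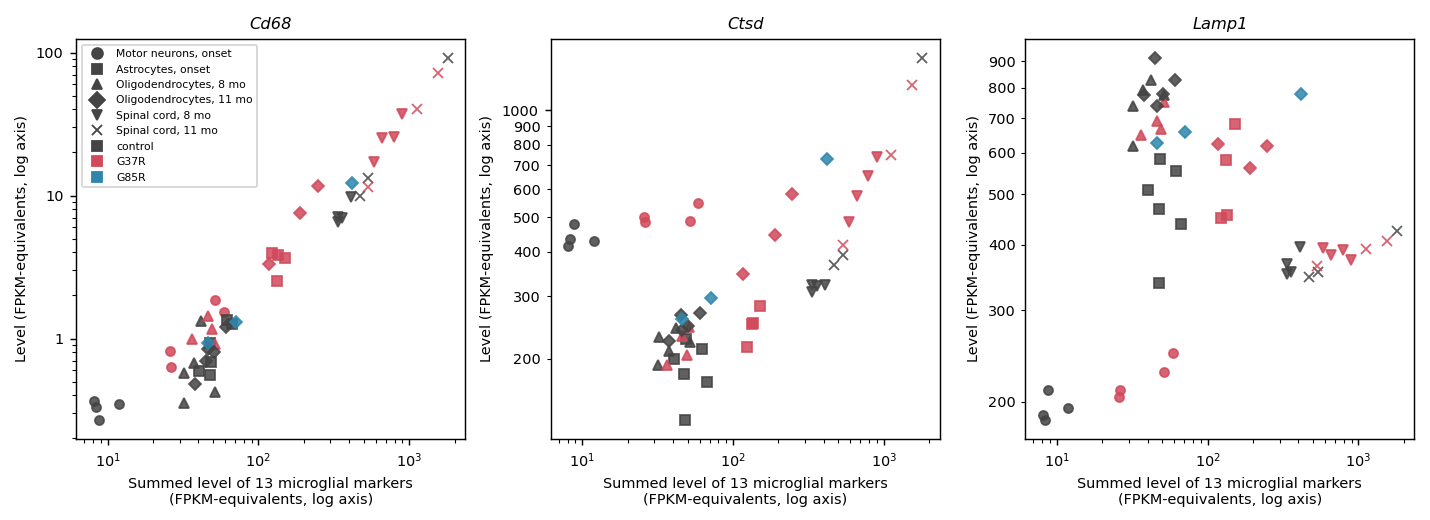
Level of Cd68, Ctsd and Lamp1 in every library against the summed level of 13 microglial markers in the same library, on log axes; marker shapes give the table and colours the genotype. Cd68 is highest in the cord libraries, where the sum is highest too, whereas Lamp1 is lowest in motor neurons and highest in oligodendrocytes; motor neurons hold Ctsd at 416 to 550 at a marker sum under 60.

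In 8-month oligodendrocytes, limma called 0 of 41 members tested, against 0.109% of 11935 genes (0.101% higher and 0.00838% lower), and 3 members had an unadjusted p under 0.05, all on the lower side, which is 7.32% beside 10.7% of genes. Ctsc and Cd68 were not tested. The median change was -0.048, against 0.014 over all genes tested, and 33 members were on the lower side. Ctso was at 16.8, 14.6, 14.8, 14.96 and 13.4 in the controls and 11.98, 12.8, 13 and 12.4 in G37R. The mutants lay below the controls, and the change was -0.23 (SE 0.071, adjusted p = 0.329). Npc2 had -0.24 (SE 0.084, adjusted p = 0.386) with overlapping groups, and Ctsz -0.20 (SE 0.089, adjusted p = 0.459). Ctss was at 9.81 ± 1.71 against 9.91 ± 3.09 (SD, G37R, n = 4, against control, n = 5) with a change of 0.017 (SE 0.20, adjusted p = 0.983). The microglial sum was 36.4 to 51.3 in G37R and 32.1 to 51.7 in the controls.

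In 11-month oligodendrocytes, 6 of the 43 members rose in G37R and 10 fell. The share called was 37.2% of members against 49.0% of 11733 genes, 26.1% higher and 22.9% lower; the shares were not tested against each other. The median change was -0.020, against 0.00073 over all genes. The 6 that rose were Cd68, Ctss, Laptm5, Ctsd, Glb1 and Gaa.

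Cd68 was at 0.699, 0.482, 0.808, 0.845 and 1.21 in the controls and 3.34, 7.49 and 11.7 in the G37R libraries. G37R 1 was the lowest mutant, above all controls, and Cd68 rose by 2.11 (SE 0.59, adjusted p = 0.0163). Ctss was at 11.97, 9.25, 11.2, 13.1 and 14.2 against 28.0, 50.1 and 65.5, and Laptm5 at 2.14, 1.36, 1.72, 1.93 and 2.61 against 3.88, 5.65 and 6.60. For both, G37R 1 lay nearest to the controls without reaching them. Ctss rose by 1.85 (SE 0.67, adjusted p = 0.0450) and Laptm5 by 1.10 (SE 0.41, adjusted p = 0.0479). Ctss lost its call in 12 of 22 alternatives and Laptm5 in 14 of 21. For both these included sex as a covariate, quantile scaling and each fit without 1 control. Ctsd was at 265, 224, 247, 241 and 268 against 346, 447 and 581, and Glb1, the galactosidase that degrades GM1 ganglioside, at 6.74, 7.04, 7.83, 8.43 and 8.99 against 9.41, 15.8 and 16.7. Their mutant libraries too lay above all 5 controls. Ctsd rose by 0.85 (SE 0.29, adjusted p = 0.0312), Glb1 by 0.73 (SE 0.21, adjusted p = 0.0165) and Gaa, the glycogen-degrading glucosidase lost in Pompe disease, by 0.58 (SE 0.16, adjusted p = 0.0141) with overlapping groups.

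Of the 10 that fell, some lay above 8-month cord in oligodendrocyte controls, whereas Ctso, Scarb2 and Ids lay below it. Ctsa, Ctsz and Cd63 also lay above cord and had no call here. In this comparison 22.9% of all genes fell, so no pattern of the members is read from the falls. Ctsk was at 28.0, 29.0, 29.0, 25.6 and 33.7 in the controls and 21.9, 12.6 and 12.3 in G37R. Each mutant lay under the lowest control, and Ctsk changed by -0.90 (SE 0.21, adjusted p = 0.00675). Npc2 was at 113, 91.8, 92.7, 79.6 and 88.2 against 75.01, 50.0 and 52.6, without overlap, a change of -0.66 (SE 0.14, adjusted p = 0.00447). Npc1 changed by -0.47 (SE 0.078), Lamp1 by -0.42 (SE 0.10), Ctso by -0.56 (SE 0.13), Fuca1, the fucosidase, by -0.48 (SE 0.088) and Smpd1, acid sphingomyelinase, by -0.37 (SE 0.065). Scarb2, the carrier of glucocerebrosidase, Sgsh, heparan sulfamidase, and Ids changed by -0.35 (SE 0.13), -0.34 (SE 0.084) and -0.27 (SE 0.071). Npc2 was the single member called in opposite directions, higher in 8-month cord and lower here.

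Marker sums differed between the genotypes in this table as well. The microglial sum was 37.9 to 60.7 in the controls and 117, 190 and 247 in G37R 1, 2 and 3, and 8 of 12 tested markers were called higher. Of 8 oligodendrocyte markers, 4 were called lower (Mog, Mag, Mobp and Ugt8a). The astrocyte sum was 757 to 1081 in the controls and 1632 to 2081 in G37R, with 2 of 8 markers called higher, and all 4 motor neuron markers tested were called higher. Their part was not tested. Without G37R 2 or without G37R 3, 9 members were called, all lower. Over all fits without 1 library, 2805 to 6549 genes were called, against 5750 with every library. The 6 members that rose had no call without G37R 2 or without G37R 3. Cd68 was then at 2.05 without G37R 2 and 1.76 without G37R 3, Ctss at 1.78 and 1.59, and Ctsd at 0.85 and 0.66. The falls of Ctsk, Ctso, Npc1, Npc2, Sgsh, Fuca1 and Smpd1 passed under every alternative. Scarb2 lost its call in 13 of 22, sex as a covariate among them, Ids in 2 and Lamp1 in 1.

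**Figure D5:**
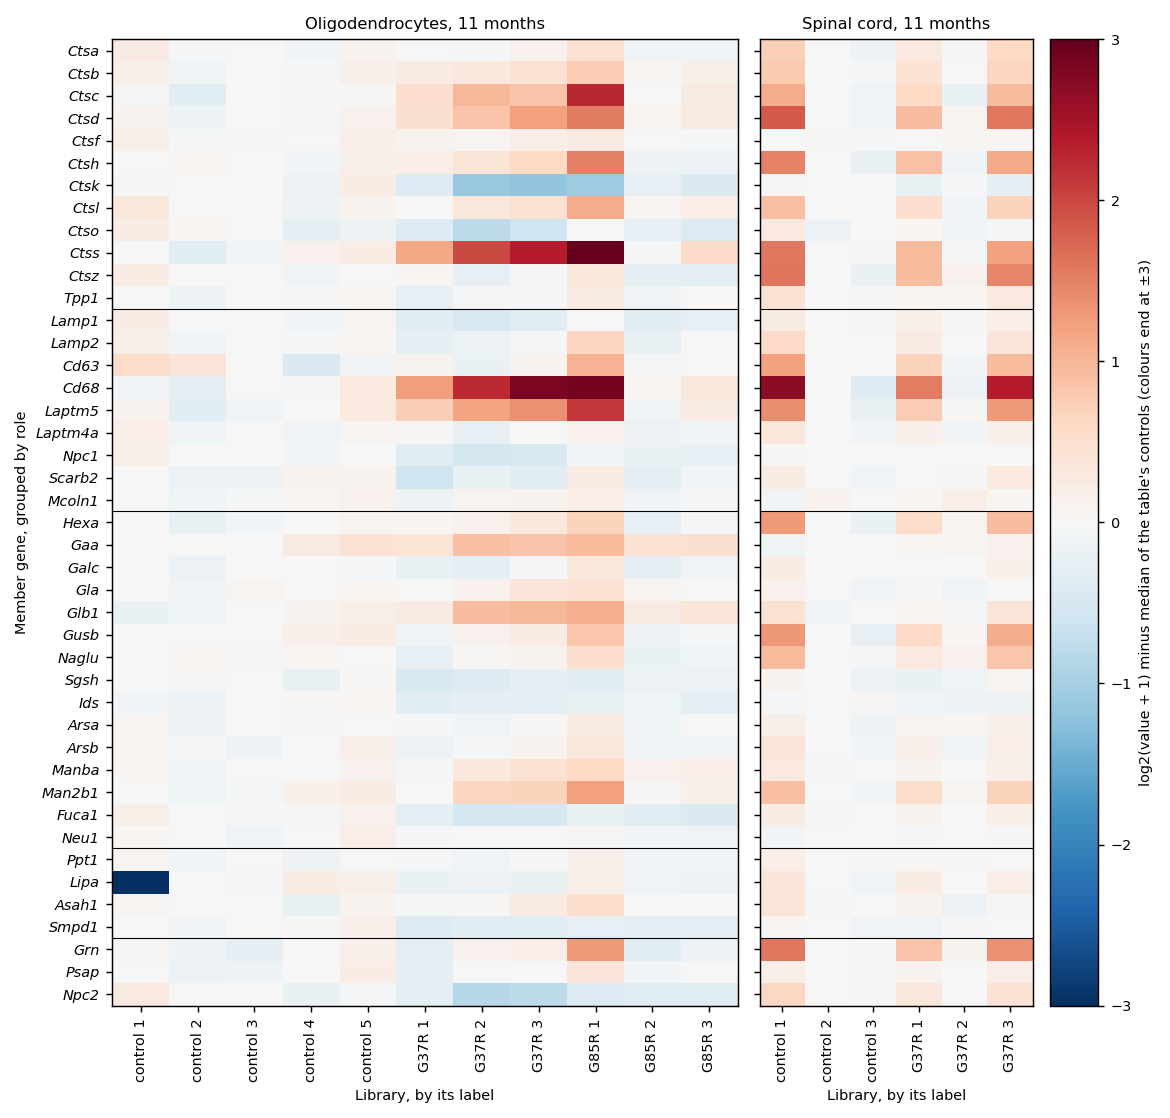
Level of each member in every 11-month library relative to the median of that table's controls, as log2(value + 1), for oligodendrocytes and whole spinal cord, with red above and blue below. Among oligodendrocytes, G37R 1 to 3 and G85R 1 are red for Ctss, Cd68 and Ctsd, while G85R 2 and 3 are near controls for those genes. For Ctsk, Lamp1 and Fuca1, G85R 2 and 3 lie below every control. In cord the library labelled control 1 is red for Cd68, Ctss and Ctsd as G37R 1 and 3 are. The library labelled G37R 2 is as pale there as controls 2 and 3.

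The G85R comparison in the same table asks whether another SOD1 mutation gives the same picture. Against control, limma called 0 of 43 members, against 0.00852% of genes, while 12 members had an unadjusted p under 0.05, which is 27.9% beside 32.2% of all genes. Without G37R 1, which shares the fit, 2 were called, beside 3.53% of genes. Against G37R it called 0 of 43, against 0.0426% of genes (0.0256% higher and 0.0170% lower), with 3 at an unadjusted p under 0.05, beside 13.8% of genes. G85R 1 set much of the spread: Cd68 was at 12.2, 0.924 and 1.29 and Ctss at 131, 11.5 and 18.2 in G85R 1, 2 and 3. The first library exceeded all G37R libraries, and the others lay within or slightly above the control range. Ctsd was at 729, 259 and 296 in the same order, with the same split.

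Both mutations share the 5 controls, so their values are given side by side. Ctsk changed by -0.58 (SE 0.21) in G85R and -0.90 (SE 0.21) in G37R, Fuca1 by -0.36 (SE 0.088) and -0.48 (SE 0.088), and Smpd1 by -0.28 (SE 0.065) and -0.37 (SE 0.065). Fuca1 was at 36.0, 33.1 and 30.6 in G85R against 47.5, 41.7, 40.1, 40.1 and 45.3 in the controls. All 3 G85R libraries, G85R 1 included, lay below the lowest control, yet the adjusted p was 0.0911. Without G85R 1, 0 of 42 members tested were called against control, and 4 (Cd68, Ctss, Laptm5 and Ctsh) were called lower than in G37R, beside 2.70% of all genes. Against control, 0 to 415 genes were called over the fits without 1 library. G85R 1 was the highest library for Cd68 and Ctss, so leaving it out lowers the G85R group by construction, and nothing is read from those 4 calls.

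In whole cord at 11 months, limma called 0 of 43 members between the libraries labelled G37R and those labelled control, against 0.0217% of 13839 genes, and 1 member, Ids, had an unadjusted p under 0.05, beside 5.36% of genes. Cd68 was at 92.2, 13.2 and 9.87 in the libraries labelled control and 40.1, 11.6 and 71.5 in those labelled G37R. Control 1 was the highest of all 6 and G37R 2 lay among controls 2 and 3. Ctsd was at 1405, 392 and 367 against 747, 418 and 1180.0, and Grn at 97.5, 31.9 and 31.0 against 58.7, 34.6 and 84.2. For both, control 1 was again highest, and G37R 2 lay just above controls 2 and 3. The change was 0.46 (SE 1.20, adjusted p = 0.977) for Cd68 and 0.29 (SE 0.73, adjusted p = 0.977) for Ctsd. Without control 1, Cd68 had 1.43 (SE 0.95, adjusted p = 0.728), and 0 of 43 members were called. Without G37R 2, 0 were called as well. Over all fits without 1 library, 4 to 10 genes were called. Leaving out the highest control or the lowest G37R library raises the difference by construction, so no direction is read from those fits.

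Other members varied less between the libraries of this age. Npc1 was at 40.3, 39.5 and 38.9 in the libraries labelled control and 39.4, 39.5 and 39.7 in those labelled G37R. Psap was at 933 ± 59.3 in G37R against 894 ± 77.9 in control (SD, n = 3 each). Gaa was at 117, 128.5 and 129 in the libraries labelled control and 133, 136 and 140 in those labelled G37R. Its G37R libraries thus lay higher throughout, with 0.13 (SE 0.062, adjusted p = 0.892). Ctsk was at 4.66, 4.45 and 4.50 against 3.71, 4.40 and 3.55, so that G37R lay lower throughout, with -0.18 (SE 0.086, adjusted p = 0.892).

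Differences between the G37R effects were tested as contrasts. Between astrocytes and motor neurons, 0 of 38 members differed by limma, against 2.83% of 11380 genes (0.940% higher and 1.89% lower), and 2 had an unadjusted p under 0.05, which is 5.26% beside 20.8% of genes. Without astrocyte G37R 4, 2 were called, beside 14.0% of genes. Between motor neurons and 8-month oligodendrocytes 1 of 38 differed, against 1.15% of genes (0.460% higher and 0.690% lower), which was Ctsz, by 0.51 (SE 0.11, adjusted p = 0.0317). That call was lost in the fits without motor neuron control 2, 3 or 4 or G37R 3 or 4, or 8-month oligodendrocyte control 2 or G37R 1, 2 or 4, and in the fit without G37R 3 and 4 of the motor neurons. Between astrocytes and 8-month oligodendrocytes 1 of 41 differed, against 0.489% of genes (0.253% higher and 0.236% lower), which was Ctsh, by 0.91 (SE 0.15, adjusted p = 0.00576). The count was 3 without astrocyte G37R 4 and 2 without astrocyte control 2 or 8-month oligodendrocyte control 1 or G37R 3. Over all fits without 1 library, 21 to 626 genes were called, against 56 with every library.

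Between 11-month and 8-month oligodendrocytes the G37R effect differed for 7 of 41 members, which is 17.1%. The share over 11551 genes was 18.7% (9.27% higher and 9.39% lower), so the count is not read as a result about the members. The effect was larger at 11 months for Ctss, by 1.83 (SE 0.33, adjusted p = 0.00306), Laptm5, by 1.12 (SE 0.30, adjusted p = 0.0194), and Ctsd, by 0.86 (SE 0.18, adjusted p = 0.00611). Glb1, Ctsh and Ctsb followed with differences of 0.64, 0.43 and 0.39. Ctsk differed the other way, by -0.88 (SE 0.21, adjusted p = 0.0117). Age and the separate normalization of the tables cannot be told apart from stage in this contrast, and the 8-month libraries were all male. The count was 2 without G37R 3 and 3 without G37R 2 of the 11-month group, 14 without its G37R 1, and 4 without G37R 1 or G37R 4 of the 8-month group. Over all fits without 1 library, 755 to 3845 genes were called, against 2156 with every library. In cord, 0 of 43 effects differed between the ages, against 0 of 13590 genes, with 2 at an unadjusted p under 0.05, beside 6.42% of genes, and the 11-month libraries that stand apart enter this contrast.

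Other genes of the lysosome were read from lists of 25 further hydrolases and cofactors, 19 membrane and transport genes, 19 subunits of the proton pump that acidifies the organelle, 19 regulators and sorting genes, and 8 cathepsin inhibitors. In 8-month cord, 3 of 22 further hydrolases and cofactors tested rose (Lyz2, Gpnmb and Dpp7) and 0 fell, beside 1.87% and 0.296% of all genes. Lyz2, the lysozyme of macrophages, was at 85.4 against 11.8 (G37R mean against control mean) and rose by 2.69 (SE 0.37, adjusted p = 0.0262). Gpnmb, a glycoprotein of phagocytes under lysosomal load, rose by 1.73 (SE 0.29, adjusted p = 0.0367). Dpp7, a dipeptidyl peptidase, rose by 0.23 (SE 0.043, adjusted p = 0.0296). The list's median change was 0.10. Of the same list, 3 of 20 rose in motor neurons (Idua, Pla2g15 and Lyz2), beside 6.49% of genes, and 2 of 22 in astrocytes (Gpnmb and Lyz2), beside 1.52%. In 8-month oligodendrocytes limma called 0 of 21, beside 0.109% of genes. In 11-month oligodendrocytes of G37R 5 rose and 5 fell of 22, beside 26.1% and 22.9% of genes.

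Of the proton pump, 1 of 18 subunits tested rose in 8-month cord, beside 1.87% of all genes, and 0 of 18 in astrocytes, beside 1.52%. In motor neurons 1 rose and 2 fell of 18, beside 6.49% and 6.37% of genes. The pump's median change was -0.031 in 8-month cord, 0.12 in astrocytes and 0.0080 in motor neurons. Regulators and sorting genes had 0 calls in 8-month cord (limma), beside 2.17% of genes. Their median was -0.021, and Tfeb was at -0.15 (SE 0.086, adjusted p = 0.434). In 11-month oligodendrocytes of G37R, 9 of 18 membrane and transport genes fell and 3 rose, and 7 of 18 pump subunits rose and 4 fell, beside the same 26.1% and 22.9% of all genes.

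Of the inhibitors, 2 of 5 tested rose in 8-month cord, Cst7 and Serpina3n, beside 1.87% of all genes. Cst7, cystatin F of immune cells, was at 7.44 against 0.656 in 8-month cord and rose by 2.30 (SE 0.20, adjusted p = 0.00468). In 11-month oligodendrocytes of G37R it rose by 1.84 (SE 0.50, adjusted p = 0.0145). Serpina3n, a serine protease inhibitor of reactive glia, rose in all 5 G37R comparisons other than 11-month cord, by 0.25 in motor neurons, 1.46 in astrocytes, 1.03 in 8-month oligodendrocytes, 2.70 in 11-month oligodendrocytes and 1.503 in 8-month cord. Cst3, cystatin C and the most abundant of the list, had no call, at 0.19 (SE 0.058, adjusted p = 0.141) in 8-month cord.

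Across the 8 comparisons within tables, 29 of the 43 members were called at least 1 time and 14 in none, which is 67.4% beside 46.7% of the 14631 genes tested in any of them. Many of those genes were tested in fewer tables than the members, so the shares are not compared. The 14 were Ctsf and Tpp1 of the proteases, Laptm4a and Mcoln1 of the membrane proteins, Galc, Gla, Naglu, Arsa, Arsb, Manba, Man2b1 and Neu1 of the glycan or sulfate hydrolases, Ppt1 and Psap. Of the 15 glycan or sulfate hydrolases, 8 were thus without a call. Galc, the galactosylceramidase of myelin turnover, stayed at 13.1 ± 1.14 in 8-month and 12.2 ± 0.723 in 11-month oligodendrocyte controls, with a change of -0.14 (SE 0.12, adjusted p = 0.334) in 11-month G37R. Arsa, the sulfatase lost in metachromatic leukodystrophy, had -0.025 (SE 0.089, adjusted p = 0.825) there.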

How the data were processed

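RNA-seq tables of 52 libraries in 13 groups were used. TopHat2 (version 2.0.8b), Cufflinks, Cuffdiff and the build mm9 are named, without roles, per the submitters' processing notes. The deposited values of the 11-month cord table were FPKM. The other 5 deposited tables held a signal 16774 times as high, by the median ratio of 8-month to 11-month cord over 13810 genes, and were divided by it; for purified cells that factor is an assumption. The planned unit was FPKM throughout. Values are not counts, so depth is unknown apart from ratios within a table, of up to 1.65. The 2 blank lines at each table were not used.

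Values were compared as log2(value + 1) with limma 3.58.1 in R 4.3.3 (trend and robust moderation, 2-sided, Benjamini-Hochberg, threshold 0.05) on genes with a table mean of at least 1, after a check on simulated data. On this scale the change of low genes is understated. Replicates are labelled biological, without naming animals. The replicate numbers showed no steady pairing of libraries: correlations of deviations from group means ran from -0.23 to 0.35 over 25 pairs, and in 0 tables were all above 0.1. That check could not exclude pairing. Values in every library are given for up to 6 called members per comparison with the largest change, and for the 3 highest and 3 lowest relative to cord per cell type. The members and lists were chosen with earlier results of these data known, and some genes of the list of further hydrolases are not reported here. Alternatives were pseudocounts of 0.1 and 5, other filters, median-ratio and quantile scaling, array weights, plain moderation, a replicate block, sex as a covariate and leaving out libraries.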

Additional observations from a re-analysis of the deposited data

Results flagged for a closer look

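In 20 of 387 sets of 4 to 6 libraries of 1 group, 1 per member, the highest or lowest library lay far from the others; chance does this in about 1 in 20. In motor neurons these were Lamp2 at 27.2 in control 2 and 28.8 in G37R 4, and Scarb2 at 25.8 in G37R 4. In astrocytes they were Fuca1 at 21.8 in control 3 and Mcoln1 at 21.3 in G37R 2. In 8-month oligodendrocytes, control 4 was low for Ctsa at 47.3, Ctsz at 54.8, Galc at 11.1 and Fuca1 at 34.7, and control 3 was high for Gla at 19.8 (others 6.57 to 8.39) and Smpd1 at 139 (others 59.4 to 78.1). Gusb was at 9.53 in G37R 3 of that table. In 11-month oligodendrocytes they were Ctsc at 0.112 in control 2, Sgsh at 5.54 in control 4 and Lipa, listed at 0 in control 1 (others 22.0 to 26.1). In 8-month cord they were Ctsc at 4.22 in control 1, Ctsf at 39.5, Cd68 at 9.82 and Arsb at 30.7 in control 2, and Scarb2 at 99.9 in G37R 2.

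The G37R effect differed between cell types or ages, by a limma contrast on the log2 scale, in 9 cases. The 7 of the oligodendrocyte age contrast were 17.1% of members tested, beside 18.7% of all genes, so nothing is read from their number. The 1 case with motor neurons was 2.63% of members, beside 1.15% of genes, and the 1 with astrocytes 2.44%, beside 0.489%. Ctsz differed by 0.51 between motor neurons and 8-month oligodendrocytes, and Ctsh by 0.91 between astrocytes and 8-month oligodendrocytes. Between 11-month and 8-month oligodendrocytes the differences were 1.83 for Ctss, 1.12 for Laptm5, 0.86 for Ctsd, 0.64 for Glb1, 0.43 for Ctsh, 0.39 for Ctsb and -0.88 for Ctsk. No cause was tested.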

How the results depend on the processing

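Of 53 called member values, 0 changed sign in 1070 refits, and 262 of these refits did not pass the threshold. The 53 were chosen by their calls, so the kept signs are not read as support. In motor neurons the count of 7 called members was 4 with array weights (1441 genes called), 2 with the replicate block and 1 without G37R 3 and 4 (261 genes, against 1582), and 1 to 10 on leaving out 1 library. In astrocytes the count of 4 was 2 with a mean of at least 5, 2 with the block (49 genes, against 292) and 3 to 5. In 11-month oligodendrocytes the 16 for G37R were 25 with array weights (8891 genes, against 5750), 9 with the block and 9 to 19, with 15 higher and 10 lower under array weights. The count for G85R against control was 0 to 2, and against G37R 10 with array weights and 0 to 4. In 8-month cord the 17 were 4 with the block (91 genes, against 300) and 3 to 19. Counts stayed at 0 in 8-month oligodendrocytes, 11-month cord and the cord contrast in every alternative, with 0 to 0 on leaving out 1 library. The astrocyte minus motor neuron contrast gave 3 with array weights and 0 to 2. Motor neurons minus 8-month oligodendrocytes gave 2 with median-ratio scaling, 2 with array weights, 0 without G37R 3 and 4, and 0 to 3. Astrocytes minus 8-month oligodendrocytes gave 2 with a pseudocount of 5, 0 with a mean of at least 5, since Ctsh was then not tested, 2 after quantile scaling, 2 with array weights, and 1 to 3. The 7 of the oligodendrocyte age contrast were 17 with array weights, 12 with sex as a covariate and 2 to 14. The counts against cord in controls kept within 1.5 times with medians in place of means. The replicate block rests on numbers for which the labels give no pairing, and the correlations of deviations could not exclude pairing. What a call lost under the block means was not tested. Other causes were not tested. Genes called moved beyond 1.5 times elsewhere as well: with array weights they were 522 in astrocytes, 25 in 8-month oligodendrocytes (against 13), 96 for G85R against control (against 1) and 3717 for G85R against G37R (against 5). With array weights the contrasts gave 1094 (against 322), 405 (130), 267 (56) and 6125 (2156), in the order above. With a mean of at least 5 there were 135 genes in 8-month cord, and with no filter 1026 in motor neurons.

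Groups of 3 to 6 libraries, unknown depth and a scale factor assumed for purified cells limit these results. The pseudocount of 1 weighs on low genes such as Cd68 in purified cells, and 5 members in motor neurons were not tested at all. Microglial marker levels moved with most of the rises. Labels of 11-month cord control 1 and G37R 2 could not be checked further. A fit without both was also run after seeing the data and is not reported, because those libraries were singled out by their measured levels.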
